A study of Homo sapiens with 8 samples.

Results

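DLX1, DLX2, DLX3, DLX4, DLX5, MSX1, MSX2 and HOXC13 are homeobox genes whose transcripts were read on 8 expression arrays of SKBR3 cells, 1 array per condition. The platform annotation gave 14 probe sets to these 8 genes, beside 41091 probe sets with 1 gene each and 19775 genes in all. Every one of the 8 genes was measured, and no filter on low values was applied. The genes were chosen with their values on these arrays in view. Their values are therefore given as a description, with no test.

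SKBR3 is an established HER2-positive breast cancer line. Medium with 10% charcoal-stripped serum was used for 4 h before treatment, which lasted 3 h. The untreated array received no agent. The ethanol array received 0.1% ethanol, the vehicle of estradiol, and the BSA array received bovine serum albumin at 1e-06 M. Free estradiol was given at 1e-06 M and E2-BSA, estradiol coupled to the albumin, at 1e-06 M. G15, an antagonist of the membrane estrogen receptor GPER, was given alone at 1e-05 M. The combinations were E2-BSA at 1e-06 M with ICI at 1e-05 M and E2-BSA at 1e-06 M with G15 at 1e-05 M. The labels write ICI without spelling it out. The study compared free with albumin-coupled hormone and asked what the antagonists alter.

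Homeobox genes encode transcription factors that bind DNA through a homeodomain. The DLX genes, relatives of the fly gene Distal-less, lie in pairs in the genome and act in limb, jaw, forebrain and skin development. The MSX genes encode mainly repressors and are widely used as markers of bone morphogenetic protein (BMP) signalling. HOXC13 is the most posterior gene of the HOXC cluster and controls keratin genes of hair and nail. In the BMP pathway a secreted ligand activates a pair of receptor kinases, which phosphorylate SMAD proteins. The SMADs enter the nucleus and raise the ID genes and their own inhibitors, SMAD6 and SMAD7.

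The deposited values are centred on a middle value for each probe set, so a value says how an array stands relative to the other arrays and not how abundant the transcript is. They were read as log2 values, and a gene is the mean of its probe sets. Without a level, neither the order of the 8 genes by abundance nor the expression of SKBR3 markers could be checked. Over 8 marker genes of the line the values lay between -0.53 and 0.27, and over 7 markers of fibroblasts, leukocytes and endothelium between -0.27 and 0.43. Some of the homeobox genes may lie near background, where differences are noise. Because each condition has 1 array, the differences carry no replicate error, interval or p-value. Less RNA per cell and fewer cells with the transcript cannot be told apart in such bulk samples.

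The 8 genes fell into those with low values on 3 arrays and those without. DLX1, DLX2, DLX3 and HOXC13 had their 3 lowest gene means on the estradiol array and on both combination arrays, E2-BSA with ICI and E2-BSA with G15. These arrays were singled out after their values were seen, and over all genes 1.35% had the same 3 arrays lowest. DLX4, DLX5, MSX1 and MSX2 did not have them lowest. A range over the 8 arrays of 1.5-fold or more, which is 0.58 in log2, was found for DLX2 (1.34), HOXC13 (1.23) and DLX3 (0.95), and 13.5% of all genes had such a range. DLX1 was just under it at 0.57.

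**Figure D1:**
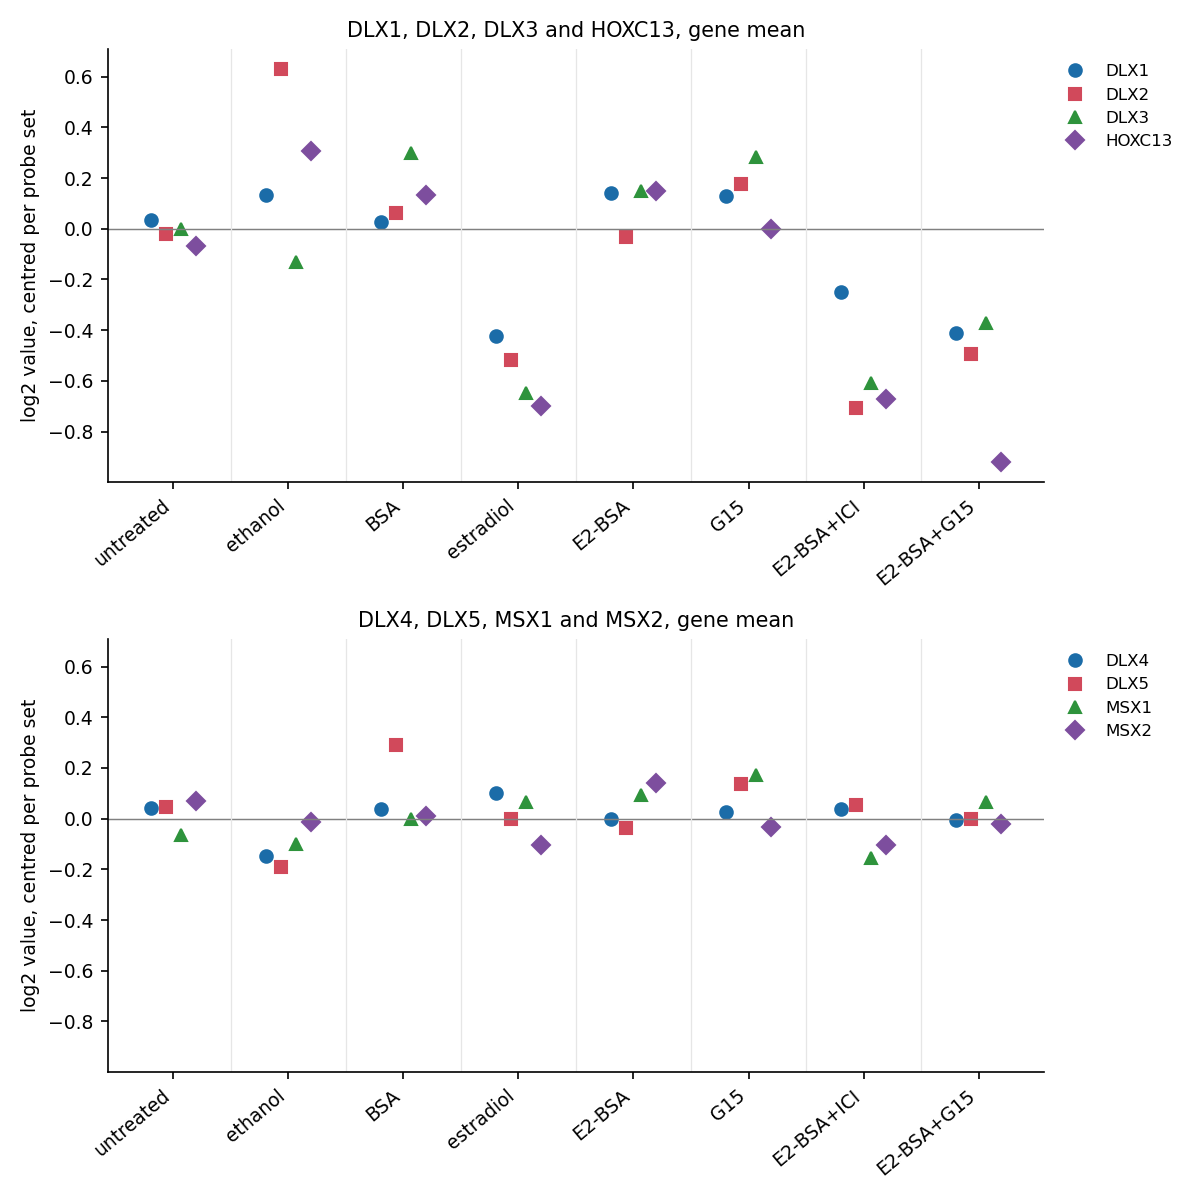
Gene means of the 8 homeobox genes on each array, in log2 centred for each probe set; each point is 1 array, with no error bar because no condition was repeated. In the upper panel DLX1, DLX2, DLX3 and HOXC13 lie between -0.25 and -0.92 on the estradiol, E2-BSA+ICI and E2-BSA+G15 arrays, and in the lower panel the other genes lie between -0.19 and 0.29 on the 8 arrays.

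HOXC13 was read by 1 probe set, 219832_s_at, whose suffix marks probes that can match several transcripts. Its log2 value was -0.07 untreated, 0.31 with ethanol, 0.13 with BSA, 0.15 with E2-BSA and 0.00 with G15. It was -0.70 with estradiol, -0.67 with E2-BSA plus ICI and -0.92 with E2-BSA plus G15. These 3 values lay apart from the other 5, which spanned -0.07 to 0.31. Estradiol minus untreated gave a difference of -0.63 for HOXC13, at rank 11 from the lowest of 19775 genes. E2-BSA plus ICI minus E2-BSA gave -0.82, at rank 19. E2-BSA plus G15 minus E2-BSA gave -1.07, a 2.10-fold lower value, at rank 4. Against G15 alone, E2-BSA plus G15 differed by -0.92, at rank 3. HOXC13 thus stood among the lowest 20 differences in each of these comparisons. Estradiol minus ethanol gave -1.01 for HOXC13, at rank 169, outside the lowest 20. The gene was chosen from such values, so its ranks are no evidence about it.

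DLX3, a regulator of epidermal and placental differentiation, was also read by 1 probe set, 231778_at. Its log2 value was 0.00 untreated, -0.13 with ethanol, 0.30 with BSA, 0.15 with E2-BSA and 0.28 with G15. It was -0.65 with estradiol, -0.61 with E2-BSA plus ICI and -0.37 with E2-BSA plus G15. The gap between the E2-BSA plus G15 array and the lowest of the other 5, ethanol, was narrower than for HOXC13. Estradiol minus untreated was -0.65 for DLX3, at rank 10 from the lowest. E2-BSA plus ICI minus E2-BSA was -0.76, at rank 29, and E2-BSA plus G15 minus E2-BSA was -0.52, at rank 131. The untreated, ethanol and BSA arrays, without hormone or antagonist, spanned -0.13 to 0.30 for this gene.

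DLX1 and DLX2 are neighbours on chromosome 2, with 0 genes of the RefSeq table wholly between them, and both act in forebrain interneurons. DLX3 and DLX4 on chromosome 17 are neighbours in the same way, as are DLX5 and DLX6 on chromosome 7. RefSeq promoter sequences of build GRCh38.p14 were found for 4 of the 8 genes. The 250 bases before the start site are shown for the DLX1 and DLX2 pair, because these genes had low values on the same arrays. Those of MSX1 and MSX2, BMP markers whose gene means did not share the pattern, are shown for comparison. By probe set, 205555_s_at of MSX2 had the same 3 arrays lowest. For DLX1 and DLX2 only 242138_at and 207147_at did. Capitals mark the SMAD GC element GGCGCC, its variant with the letters GGAGCC, and the SMAD4 element written CAGAC, on either strand.
DLX1, chr2:172085257-172085506, plus strand: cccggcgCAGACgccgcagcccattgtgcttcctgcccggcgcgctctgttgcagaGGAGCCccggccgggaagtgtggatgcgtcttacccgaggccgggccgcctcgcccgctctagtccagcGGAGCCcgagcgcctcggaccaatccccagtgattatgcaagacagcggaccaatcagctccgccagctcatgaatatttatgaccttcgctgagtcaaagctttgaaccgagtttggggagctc
DLX2, chr2:172102901-172103150, minus strand: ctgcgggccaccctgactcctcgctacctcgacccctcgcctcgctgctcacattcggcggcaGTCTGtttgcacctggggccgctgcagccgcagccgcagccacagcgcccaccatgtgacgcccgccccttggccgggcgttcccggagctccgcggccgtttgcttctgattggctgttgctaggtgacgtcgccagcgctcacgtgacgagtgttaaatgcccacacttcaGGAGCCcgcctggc
MSX1, chr4:4859415-4859664, plus strand: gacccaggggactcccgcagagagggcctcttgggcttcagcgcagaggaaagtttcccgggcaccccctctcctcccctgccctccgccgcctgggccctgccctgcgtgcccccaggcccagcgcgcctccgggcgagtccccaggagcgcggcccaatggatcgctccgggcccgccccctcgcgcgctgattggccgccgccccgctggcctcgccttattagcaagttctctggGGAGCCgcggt
MSX2, chr5:174724332-174724581, plus strand: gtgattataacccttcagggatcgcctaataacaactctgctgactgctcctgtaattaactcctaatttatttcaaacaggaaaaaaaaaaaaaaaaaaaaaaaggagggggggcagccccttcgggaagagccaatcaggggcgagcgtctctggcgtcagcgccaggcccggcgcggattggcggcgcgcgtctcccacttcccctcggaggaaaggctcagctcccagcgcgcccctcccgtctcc

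In these windows GGCGCC had 0 matches in any of the 4 genes, beside 16.4% of all 35116 promoters of that length with a match. GGAGCC matched 2 times in DLX1, 1 time in DLX2, 1 time in MSX1 and 0 times in MSX2, and 30.6% of all promoters held it. CAGAC matched 1 time each in DLX1 and DLX2 and 0 times in MSX1 and MSX2, and 38% of all promoters held it. The palindromic estrogen response element, searched with any bases in its spacer, had 0 matches in the 4 windows and was found in 0.0399% of all promoters. The shorter GGTCA matched 1 time in DLX1 and 0 times in the other 3 windows, beside 32.6% of all promoters. TAATT, letters bound by many homeodomains, matched 3 times in MSX2, with 2 overlapping matches, and 0 times in DLX1, DLX2 and MSX1, and 23.1% of all promoters held it. Both strands were searched. The DLX1 window was 63.6% G or C, DLX2 68%, MSX1 74% and MSX2 55.6%. A match describes letters only, and with such shares over all promoters the windows of DLX1 and DLX2 hold common motifs.

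The 2 probe sets of DLX1 gave different readings. Probe set 242138_at stood at 0.07 untreated, 0.27 with ethanol, 0.00 with BSA, 0.28 with E2-BSA and 0.27 with G15. It stood at -0.83 with estradiol, -0.83 with E2-BSA plus ICI and -0.88 with E2-BSA plus G15. The 3 low arrays were within 0.05 of each other and apart from the other 5. Probe set 1560100_at lay between -0.02 and 0.05 on 7 arrays and at 0.33 on the E2-BSA plus ICI array. The gene mean of DLX1 averages both. Estradiol minus untreated was -0.90 for 242138_at, -0.02 for 1560100_at and -0.46 for the mean.

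DLX2 had the same split. Probe set 207147_at stood at -0.11 untreated, 1.37 with ethanol, 0.00 with BSA, 0.04 with E2-BSA and 0.23 with G15. It stood at -0.98 with estradiol, -1.08 with E2-BSA plus ICI and -0.99 with E2-BSA plus G15. The 3 low arrays again lay close together, and the ethanol array was higher than any other. Probe set 215685_s_at lay between -0.34 (E2-BSA plus ICI) and 0.12 (G15 and BSA), with 0.00 on the E2-BSA plus G15 array and -0.06 with estradiol. Its suffix marks probes that can match several transcripts. Estradiol minus untreated was -0.87 for 207147_at, -0.13 for 215685_s_at and -0.50 for the gene mean of DLX2. On the deposited values 207147_at had the widest range of the 14 probe sets.

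**Figure D2:**
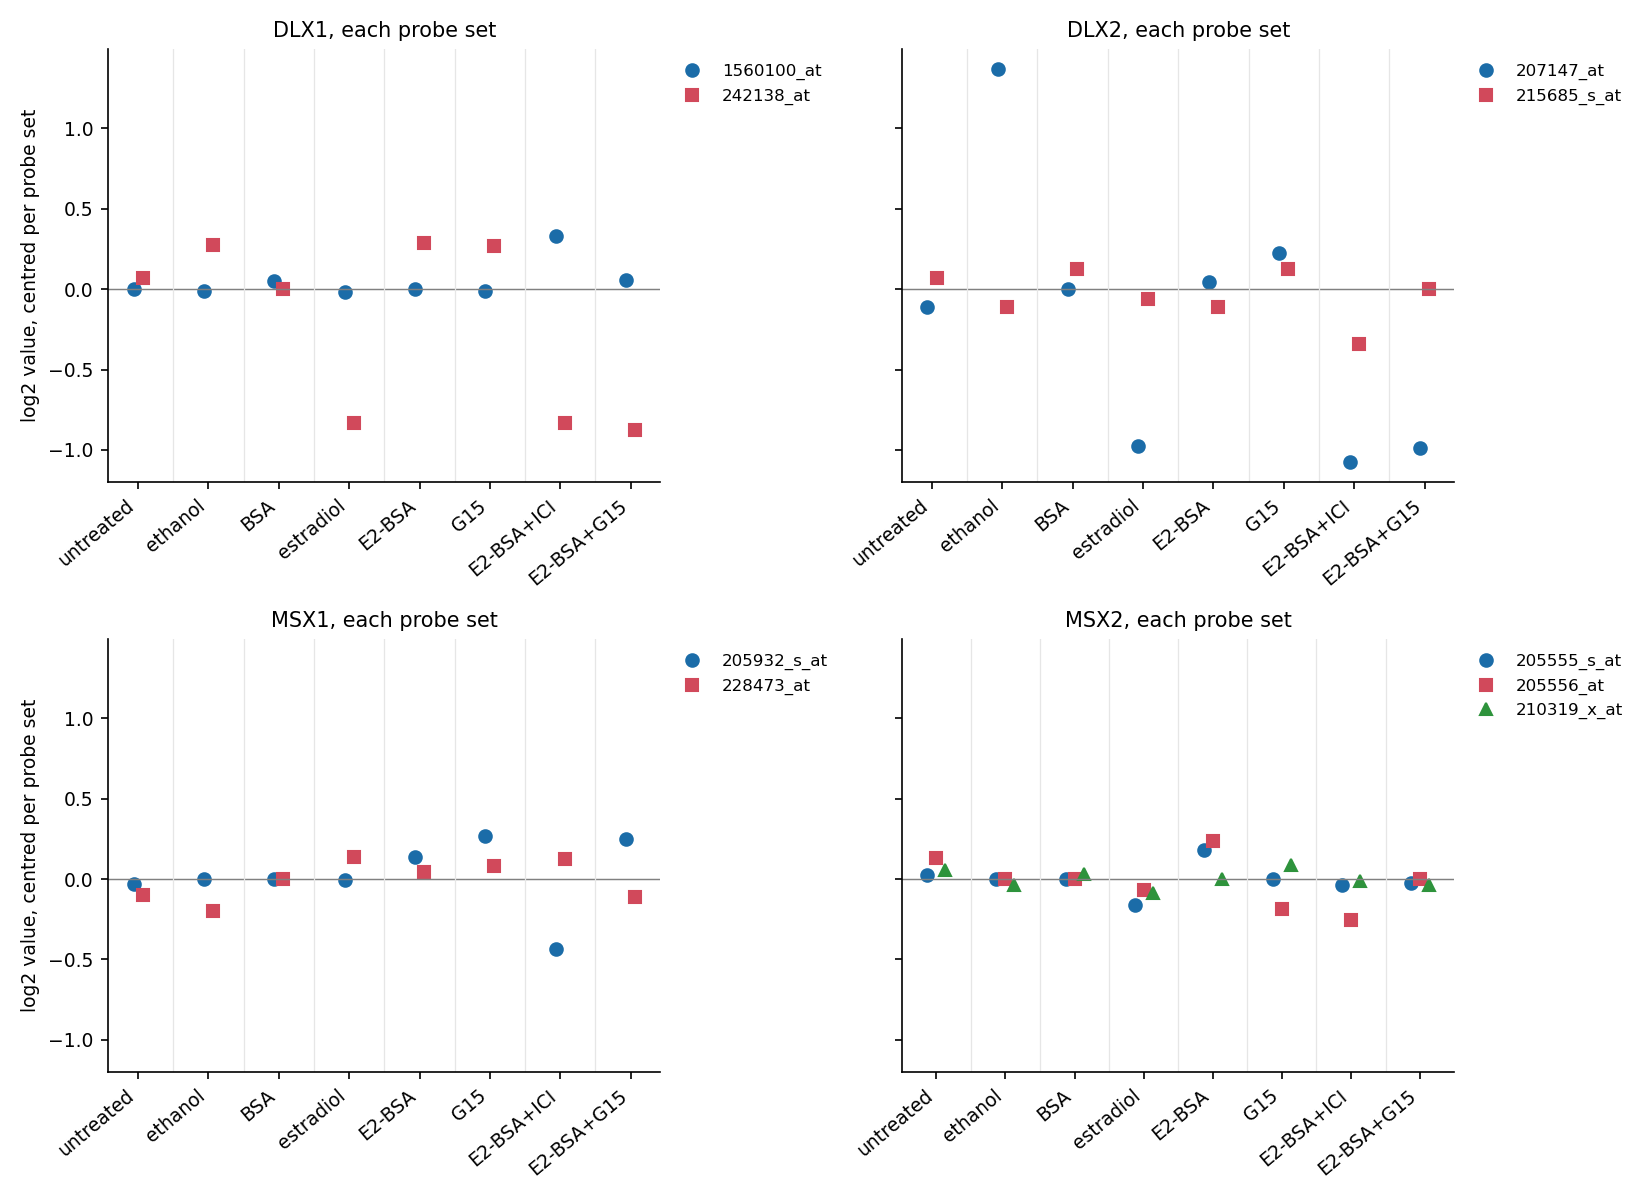
Values of each probe set of DLX1, DLX2, MSX1 and MSX2 on the 8 arrays, in log2 centred for each probe set; each point is 1 array. DLX1 242138_at and DLX2 207147_at lie between -0.83 and -1.08 on the estradiol, E2-BSA+ICI and E2-BSA+G15 arrays; on the same arrays DLX1 1560100_at lies between -0.02 and 0.33 and DLX2 215685_s_at between -0.34, its lowest value, and 0.00.

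The remaining genes stayed near 0. MSX1, read by 2 probe sets, had gene means between -0.16 with E2-BSA plus ICI and 0.17 with G15. Its probe sets disagreed on the E2-BSA plus ICI array, where 205932_s_at stood at -0.44 and 228473_at at 0.12. MSX2, read by 3 probe sets, had gene means between -0.10 with estradiol and 0.14 with E2-BSA. For the E2-BSA plus ICI array the MSX2 gene mean was also -0.10, and for E2-BSA plus G15 it was -0.02. That last value lay between G15 alone at -0.03 and ethanol at -0.01. The estradiol array and both combinations were therefore not the 3 lowest for MSX2. MSX genes are commonly raised by BMP signals together with the ID genes, and neither reached a 1.5-fold difference as a gene mean in the 11 comparisons. Because the values hold no level, an MSX gene near background cannot be told apart from one that was expressed and did not differ.

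DLX4, a DLX gene described in blood and placental cells, was read by 2 probe sets, with gene means between -0.15 with ethanol and 0.10 with estradiol. DLX5, a regulator of bone formation read by 1 probe set, lay between -0.19 with ethanol and 0.29 with BSA, and stood at 0.00 both with estradiol and with E2-BSA plus G15. Its value with E2-BSA plus ICI was 0.06. On the 3 arrays that were lowest for DLX1, DLX2, DLX3 and HOXC13, DLX4 stood at 0.10 with estradiol, its highest value, at 0.04 with E2-BSA plus ICI and at -0.01 with E2-BSA plus G15, its second lowest. By the mean absolute difference over the 8 arrays, DLX4 and DLX5 were the closest pair of the 8 genes at 0.071. DLX2 lay 0.18 from both HOXC13 and DLX1, and DLX5 and HOXC13 were farthest apart at 0.43. DLX1 lay closest to MSX2, at 0.15, and then to DLX3 at 0.17 and MSX1 at 0.19, so that by gene means its nearest gene was one without the 3 low arrays. The DLX1 mean averages 242138_at, which was low on those arrays, with 1560100_at, which was not.

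The vehicle and the carrier were read first, since neither holds hormone. Ethanol minus untreated gave 0.65 for DLX2, which was the 1 gene of the 8 past 1.5-fold, and 2.98% of all genes were higher by that much. Lower by 1.5-fold were 0 of the 8, beside 0.723% of all genes. The DLX2 difference came from 207147_at at 1.48, while 215685_s_at gave -0.18. HOXC13 differed by 0.37, DLX1 by 0.10, DLX3 by -0.13, DLX4 by -0.19 and DLX5 by -0.24. The ethanol array stood apart from the rest over many genes, with an SD of the difference from untreated of 0.30 over all genes. BSA minus untreated had an SD of 0.17 and placed 0 of the 8 genes past 1.5-fold, beside 0.202% of all genes lower and 0.354% higher, with DLX3 at 0.30, DLX5 at 0.24 and HOXC13 at 0.20.

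Free estradiol was then set against untreated cells. Lower by 1.5-fold were DLX3 and HOXC13, 2 of the 8 genes, beside 0.091% of all genes. By probe set, 4 of 14 were lower by that much, those of DLX1 (242138_at), DLX2 (207147_at), DLX3 and HOXC13, beside 0.127% of 41091. None of the 8 was higher by 1.5-fold, beside 0.086% of all genes, and MSX1 at 0.13 had the largest positive difference of the 8. The median over the 8 genes was -0.32, and over all genes it was 0.00. The members were chosen from such values, so these shares are no evidence about them.

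Against the ethanol array the estradiol array differed by -1.15 for DLX2, -1.01 for HOXC13, -0.56 for DLX1 and -0.52 for DLX3. DLX2 and HOXC13 were thus 2 genes of the 8 past 1.5-fold, beside 2.84% of all genes lower and 0.566% higher. For DLX2 the ethanol array held the highest of the 8 values, and for HOXC13 as well. DLX4 differed by 0.25, DLX5 by 0.19 and MSX1 by 0.16 in this comparison, and for these 3 genes ethanol held the lowest or the second lowest value. The share that the ethanol array itself has in these differences was not tested. No ethanol percentage was recorded for the estradiol array, so a matched vehicle is not established.

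Albumin-coupled estradiol was set against its carrier. E2-BSA minus BSA placed 0 of the 8 genes past 1.5-fold in either direction, beside 0.662% of all genes lower and 0.339% higher. HOXC13 differed by 0.02, DLX2 by -0.09, DLX1 by 0.12 and DLX3 by -0.15. DLX5 had the largest difference of the 8, at -0.33, and BSA held its highest value. The 2 forms of the hormone, at the same stated molarity and time, were compared directly as 1 pair. Estradiol minus E2-BSA was -0.85 for HOXC13, -0.80 for DLX3, -0.57 for DLX1 and -0.49 for DLX2. HOXC13 and DLX3 were past 1.5-fold, beside 0.111% of all genes lower and 0.273% higher, and DLX1 lay just short of it. MSX2 differed by -0.25, DLX4 by 0.10, DLX5 by 0.04 and MSX1 by -0.03. By gene means, free and coupled hormone thus stood apart past 1.5-fold in HOXC13 and DLX3 and near each other in DLX5 and MSX1. By probe set, 242138_at of DLX1 differed by -1.12 and 207147_at of DLX2 by -1.02. The other probe set of each gene differed by -0.02 (1560100_at) and 0.05 (215685_s_at). With 1 array each no interval can be given, and an equal dose of the hormone itself is not established by the labels.

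G15 alone minus untreated placed 0 of the 8 genes past 1.5-fold, beside 0.167% of all genes lower and 0.364% higher. DLX3 differed by 0.28, MSX1 by 0.24, DLX2 by 0.20, DLX1 by 0.09 and HOXC13 by 0.07. None of DLX1, DLX2, DLX3 and HOXC13 was lower on this array than untreated.

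The E2-BSA plus ICI array was then set against the E2-BSA array. HOXC13 (-0.82), DLX3 (-0.76) and DLX2 (-0.68) were lower by 1.5-fold, 3 of the 8 genes, beside 0.566% of all genes lower and 1.03% higher. DLX1 differed by -0.39 as a mean of -1.12 for 242138_at and 0.33 for 1560100_at. MSX1 differed by -0.25 and MSX2 by -0.24, while DLX4 (0.04) and DLX5 (0.09) were close to 0. The median over the 8 genes was -0.32, beside 0.008 over all genes.

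G15 added to E2-BSA gave a like set of values. Against E2-BSA alone HOXC13 was the 1 gene of the 8 lower by 1.5-fold, beside 0.359% of all genes lower and 0.435% higher, and DLX1 (-0.55), DLX3 (-0.52) and DLX2 (-0.46) lay short of it. By probe set, 242138_at of DLX1 differed by -1.16 and 207147_at of DLX2 by -1.03. Against G15 alone HOXC13 (-0.92), DLX2 (-0.67) and DLX3 (-0.65) were lower by 1.5-fold, 3 of the 8, beside 0.359% of all genes lower and 0.131% higher. DLX1 differed by -0.54 there. MSX1 (-0.11), MSX2 (0.01), DLX4 (-0.03) and DLX5 (-0.14) were closer to 0. The ICI and G15 comparisons with E2-BSA share the E2-BSA array, as does estradiol minus E2-BSA, so a low or high reading of that array would enter each of them.

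The antagonists, each at 1e-05 M on the same E2-BSA dose, were compared as a second pair. The ICI combination minus the G15 combination placed 0 of the 8 genes past 1.5-fold, beside 0.248% of all genes lower and 0.283% higher. HOXC13 differed by 0.25 and DLX1 by 0.16, while DLX3 (-0.24), MSX1 (-0.22) and DLX2 (-0.21) differed the other way. By probe set, 242138_at of DLX1 differed by 0.04 and 207147_at of DLX2 by -0.09, and 205932_s_at of MSX1, at -0.68, was the 1 probe set of 14 past 1.5-fold, beside 0.871% of probe sets. No interval can be given for these differences.

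Counted by probe set, the DLX1, DLX2, DLX3 and HOXC13 readings gave more calls than the gene means. Lower by 1.5-fold were 4 of 14 with ICI added to E2-BSA, beside 2.08% of probe sets, and 3 with G15 added, beside 0.866%. E2-BSA plus G15 minus G15 had 4, beside 0.521%, estradiol minus E2-BSA 4, beside 0.309%, and estradiol minus ethanol 3, beside 3.66%. Ethanol minus untreated had 1 probe set higher, 207147_at of DLX2, beside 3.98%. By probe set the 3 lowest arrays were the estradiol and combination arrays for 5 of 14, with 205555_s_at of MSX2 as the added one, beside 1.2% of probe sets.

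At 2-fold fewer gene means were counted. DLX2 and HOXC13 were lower by 2-fold for estradiol minus ethanol, beside 0.865% of all genes, and HOXC13 for E2-BSA plus G15 minus E2-BSA, beside 0.0303%. Lower by 2-fold were 0 of the 8 for estradiol minus untreated (0.0152% of all genes), estradiol minus E2-BSA (0.0152%), ICI added to E2-BSA (0.0405%) and E2-BSA plus G15 minus G15 (0.0101%). Higher by 2-fold for ethanol minus untreated were 0 of the 8, beside 0.87%.

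**Figure D3:**
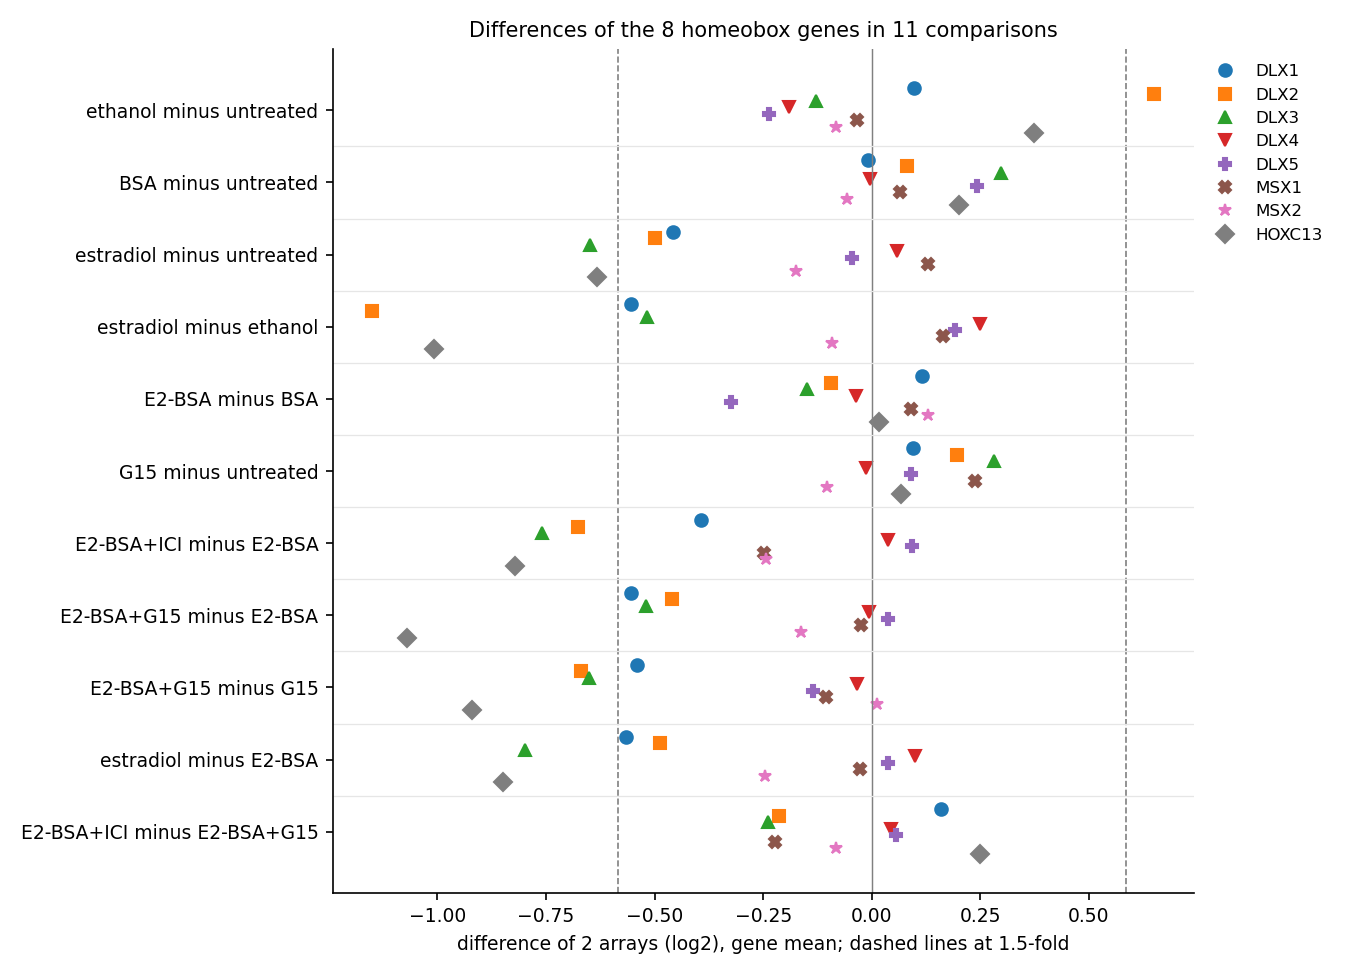
Difference between 2 arrays (log2, horizontal axis) for each of the 8 homeobox genes in the 11 comparisons (vertical axis); each point is 1 gene and the dashed lines mark 1.5-fold. DLX1, DLX2, DLX3 and HOXC13 lie left of -0.39 in the comparisons of estradiol and of both combinations with untreated, ethanol, E2-BSA or G15, while DLX4, DLX5, MSX1 and MSX2 lie between -0.33 and 0.25 throughout.

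The position of each array was also read against untreated, ethanol and BSA, which hold neither hormone nor antagonist. On the E2-BSA plus ICI array 6 of the 8 genes lay below the range of those 3 arrays, beside 20.4% of all genes. On the estradiol array 5 did, beside 14.8%, and on the E2-BSA plus G15 array 5, beside 20.2%. DLX1, DLX2, DLX3, HOXC13 and MSX2 were the 5 on both, and MSX1 was added on the E2-BSA plus ICI array. For MSX2 the step below the range was 0.01 or less on the E2-BSA plus G15 array. On the E2-BSA array 1 gene, DLX2, lay below the range, beside 19.4%, and on the G15 array 1 gene, MSX2, beside 18.1%. Above the range were 3 genes on the E2-BSA array, DLX1, MSX1 and MSX2, beside 23% of all genes, and 2 on the estradiol array, DLX4 and MSX1, beside 17%. MSX1 was the 1 gene above it on the G15 array, beside 28.7%, and on the E2-BSA plus G15 array, beside 19.8%. On the E2-BSA plus ICI array 0 of the 8 were above it, beside 28.4%.

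Genes whose values lay closest to those of the homeobox genes were found by the mean absolute difference over the 8 arrays, for the genes with a range of at least 1.5-fold. For HOXC13 the nearest were ID3 (0.088), SMAD7 (0.089) and ID4 (0.093). ID3 and ID4 encode inhibitors of helix-loop-helix factors, and SMAD7 inhibits the BMP and TGF-beta receptors. For DLX3 they were MAB21L4 (0.14), ID3 (0.15) and SMAD7 (0.15), although MAB21L4 stood at -0.11 with estradiol where DLX3 stood at -0.65. For DLX2 they were OVOL1 (0.12), a zinc finger factor of epithelia, SMAD7 (0.13) and CMPK2 (0.17), an interferon-inducible kinase. SMAD7 was therefore among the nearest 3 of each. Its values were -0.01 untreated, 0.35 with ethanol, 0.18 with BSA, 0.22 with E2-BSA and 0.00 with G15, against -0.61 with estradiol, -0.66 with E2-BSA plus ICI and -0.53 with E2-BSA plus G15.

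The likeness of single probe sets was an added step, chosen with these values known. The closest to DLX1 242138_at was SMAD6 207069_s_at, at 0.11. That probe set stood at 0.07 untreated, 0.35 with ethanol, 0.10 with BSA, 0.00 with E2-BSA and -0.01 with G15. It stood at -0.84 with estradiol, -0.96 with E2-BSA plus ICI and -0.88 with E2-BSA plus G15. HOXC13 was next, at 0.13, and ID3 followed at 0.16. As a mean of 4 probe sets SMAD6 differed by -0.33 between estradiol and untreated, where 207069_s_at differed by -0.91. The other SMAD6 probe sets differed by 0.05 (209886_s_at), -0.29 (209887_at) and -0.15 (213565_s_at) in that comparison. DLX1 1560100_at, without the low values, lay closest to probe sets of TRPM3 (0.021), WNK2 (0.024) and LINC00919 (0.025). For DLX2 215685_s_at the closest belonged to AKT2 (0.026), OR1D5 (0.035) and HMBOX1 (0.037). Whether 1560100_at and 215685_s_at read background rather than their gene was not tested.

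**Figure D4:**
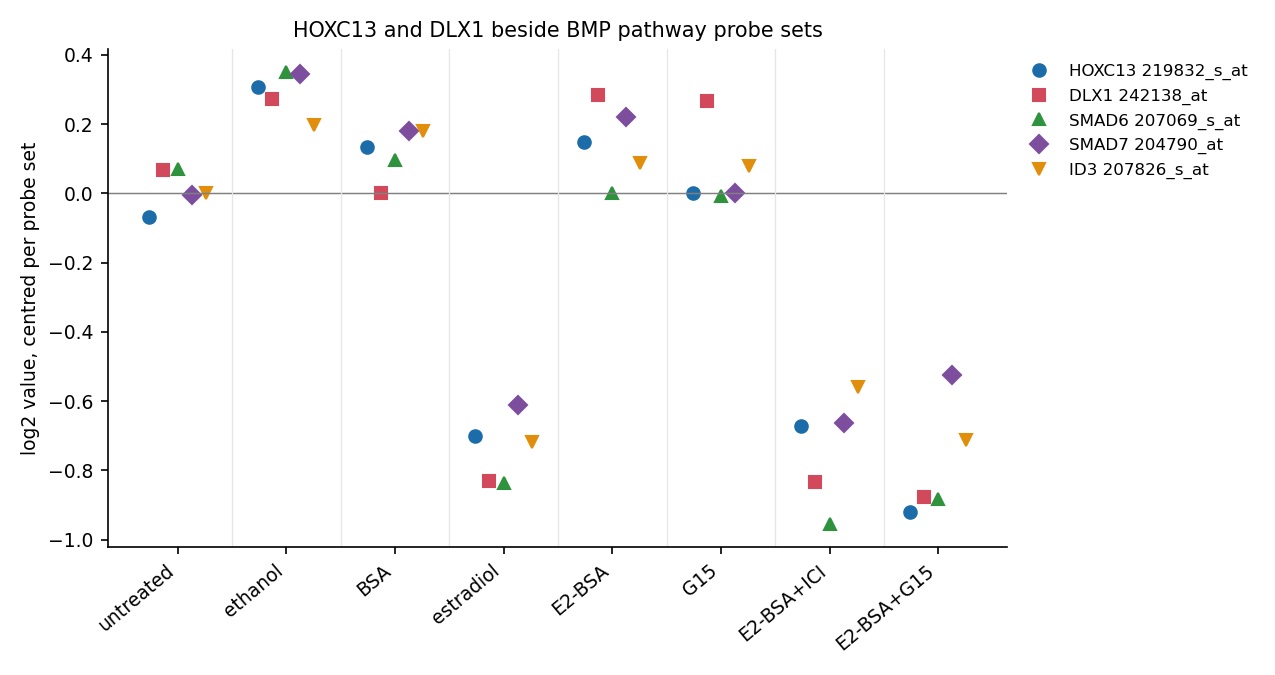
Values of HOXC13 219832_s_at and DLX1 242138_at with SMAD6 207069_s_at, SMAD7 204790_at and ID3 207826_s_at on the 8 arrays, in log2 centred for each probe set; each point is 1 array. On the estradiol, E2-BSA+ICI and E2-BSA+G15 arrays the 5 probe sets lie between -0.53 and -0.96, and on the other 5 arrays between -0.07 and 0.35. For SMAD6 and DLX1 the probe set with the widest range of the gene is shown.

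The BMP pathway was read from a list of ligands, receptors, SMADs, inhibitors and ID genes, of which 24 were measured. The list was chosen with earlier results of these data known, so its counts are no evidence about the pathway. Estradiol minus untreated placed 5 of 24 lower by 1.5-fold, namely ID1 (-2.03), ID2 (-1.45), ID4 (-0.83), ID3 (-0.72) and SMAD7 (-0.61), beside 0.091% of all genes, and 0 higher, beside 0.086%. The median of the list was -0.05, since the ligands and receptors lay between -0.23 and 0.28 in this comparison. E2-BSA plus ICI minus E2-BSA placed the same 5 genes lower, beside 0.566% of all genes, with ID1 at -1.97, ID2 at -1.22, SMAD7 at -0.88 and ID3 at -0.64, and with ID4 between ID2 and SMAD7. E2-BSA plus G15 minus E2-BSA placed ID1 (-1.74), ID4 (-0.94), ID3 (-0.80), SMAD7 (-0.75) and BAMBI (-0.62), a decoy receptor, lower, beside 0.359% of all genes, and ID2 at -0.58 just missed. SMAD6 differed by -0.33, -0.28 and -0.24 in these 3 comparisons. Against E2-BSA, HOXC13 differed by more than ID3 and SMAD7 where G15 was added, and by less than SMAD7 where ICI was added.

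In the other comparisons these genes ran as follows. Against ethanol, estradiol placed ID1 at -1.68, ID2 at -1.22, ID3 at -0.92, ID4 at -0.95, SMAD7 at -0.96 and BAMBI at -1.73, and SMAD6 at -0.28. Lower by 1.5-fold were 6 of 24, beside 2.84% of all genes. BAMBI was itself higher by 1.34 with ethanol than untreated, and differed by -0.38 between estradiol and untreated. E2-BSA plus G15 minus G15 gave ID1 -1.70, ID2 -0.63, ID3 -0.79 and ID4 -0.91, with SMAD7 at -0.53 and SMAD6 at -0.47, so that 4 of 24 were lower by 1.5-fold, beside 0.359% of all genes. E2-BSA minus BSA placed 0 of the 24 past 1.5-fold, beside 0.662% of all genes lower and 0.339% higher, with ID1 at -0.13, ID2 at -0.07, ID3 at -0.09, SMAD6 at -0.09 and SMAD7 at 0.04. G15 minus untreated also placed 0 past it, beside 0.167% lower and 0.364% higher, with ID1 at -0.01, ID2 at -0.17, ID3 at 0.08, SMAD6 at 0.12 and SMAD7 at 0.01. In both, DLX1, DLX2, DLX3 and HOXC13 were also short of 1.5-fold. Counts of 0 are near the shares over all genes and are no result about the members or the list.

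Other homeobox genes were read from a list of HOXC genes, posterior HOX genes, DLX6, engrailed and BARX genes and HOX cofactors, of which 18 were measured. In estradiol minus untreated 0 of 18 were past 1.5-fold, beside 0.091% of all genes lower and 0.086% higher. In the ICI comparison with E2-BSA there were also 0, beside 0.566% lower and 1.03% higher. Counts of 0 are near these shares and are no result about the list. E2-BSA plus G15 minus E2-BSA placed 1 lower, HOXC9 at -0.71, beside 0.359% of all genes. HOXC9 was highest on the E2-BSA array at 0.44 and lowest on the G15 array at -0.42. Of the closest cluster neighbours of HOXC13, HOXC12 differed by -0.20 between estradiol and untreated, HOXC11 by -0.15 and HOXC10 by -0.18. With ICI added to E2-BSA, HOXC11 differed by -0.51, HOXC12 by -0.14 and HOXC10 by 0.17. With G15 added they differed by -0.19, -0.14 and -0.06. The low values of HOXC13 on the 3 arrays were thus larger in size than those of its cluster neighbours, and these differences have no replicate error.

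**Figure D5:**
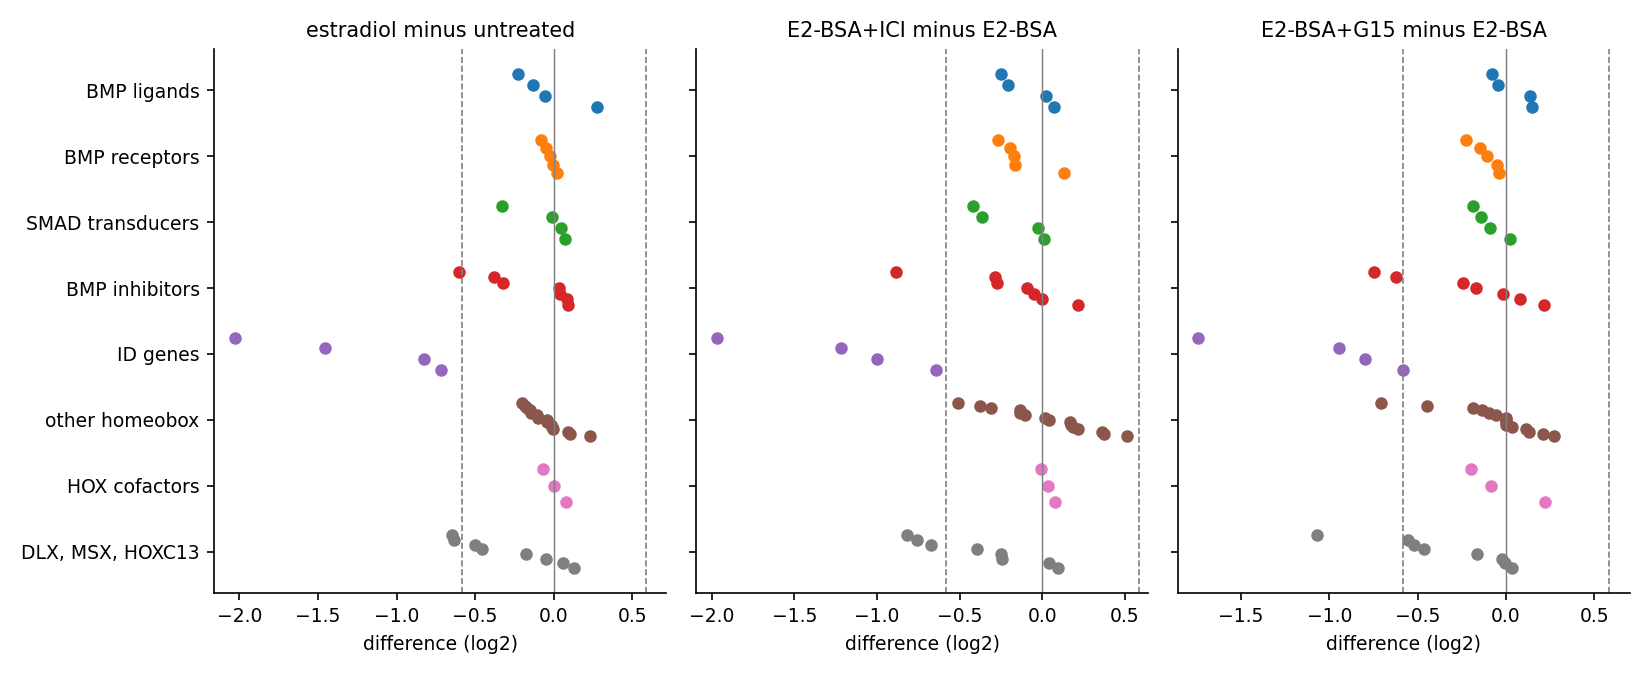
Differences (log2, horizontal axis) in 3 comparisons for the measured genes of the BMP list by role, for other homeobox genes and HOX cofactors, and for the 8 DLX, MSX and HOXC13 genes; each point is 1 gene and the dashed lines mark 1.5-fold. HOXC13, SMAD7, ID1, ID3 and ID4 lie past the lower line in each panel, with ID2 and DLX3 in the first, ID2, DLX2 and DLX3 in the second, and BAMBI and HOXC9 in the third.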

How the data were processed

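Transcripts of SKBR3 cells were measured on 8 Affymetrix expression arrays, 1 for each condition, grouped by title. For summarization and normalization the authors' steps were not given in the sources used here. Per the files, the deposited values, read as log2, lie between -2.27 and 7.85, and each array has a median of 0.00. In every probe set at most 4 arrays lie above 0 and at most 4 below, so the values are centred and hold no level. The log base is not stated, and with natural logs the folds would be larger. Control probe sets (62) were left out. Of the others, 41091 carried 1 gene, 1801 several and 11721 none in the platform annotation, and 41037 were matched by gene identifier to the current RefSeq record. A gene is the mean of its probe sets.

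Differences are 1 array minus another, counted past 1.5-fold. With 1 array per condition there was no test, and the number of arrays limits the precision. The members and lists were chosen with earlier results of these data known. Genes named were the members, ID1, ID2, ID3, SMAD6 and SMAD7, listed genes past 1.5-fold, and the 3 nearest genes of each member with a range of 1.5-fold. Other named genes and probe sets were chosen after their values were seen. Counting was tested on simulated data. Alternatives covered scaling between arrays, the summary and choice of probe sets, the reference array and the threshold. Python 3.11.15, numpy 2.4.6, pandas 2.3.3 and matplotlib 3.10.9 were used.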

Additional observations from a re-analysis of the deposited data

Results flagged for a closer look

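G15 differed in direction without and with E2-BSA for 4 genes. G15 minus untreated was above 0 and E2-BSA plus G15 minus E2-BSA below 0 for DLX1 (0.09 and -0.55), DLX2 (0.20 and -0.46), DLX3 (0.28 and -0.52) and HOXC13 (0.07 and -1.07). The second difference minus the first was -0.65 for DLX1, -0.66 for DLX2, -0.80 for DLX3 and -1.14 for HOXC13. With 1 array per condition the difference between these effects was not tested. The values without E2-BSA were smaller than BSA minus untreated for DLX3 (0.30) and HOXC13 (0.20). They were larger than it for DLX1 (-0.01) and DLX2 (0.08). The sign of the values without E2-BSA rests on small differences. With BSA in place of untreated as the reference, G15 alone differed by -0.02 for DLX3 and -0.13 for HOXC13, so that the opposite directions were lost for these genes and kept for DLX1 (0.10) and DLX2 (0.11). Against the mean of untreated and BSA, HOXC13 differed by -0.03 and DLX3 by 0.13.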

How the results depend on the processing

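No gene mean past 1.5-fold in the values reported changed sign under the alternatives tried. MSX1, at -0.22 for the ICI minus the G15 combination, was past 1.5-fold at -0.68 with the probe set of largest range and stood at 0.24 without probe sets that can match several transcripts. Of 96 counts recomputed, 74 stayed within 1.5 times, and of 498 member differences 439 moved by less than 0.17, the SD over genes of BSA minus untreated. Subtracting each array's median changed nothing, since the medians are 0, yet its 88 differences and 13 counts are in these totals. The median of probe sets, with another 88 differences, equals the mean for genes with 1 or 2 probe sets. Choosing the probe set of largest range changes nothing for genes with 1 probe set. The totals therefore overstate how stable the values were. With the probe set of largest range for each gene, 4 members were lower for estradiol minus untreated, 4 for estradiol minus E2-BSA, 3 for E2-BSA plus G15 minus E2-BSA and 1 for the ICI minus the G15 combination. With quantile normalization 4 were lower for estradiol minus ethanol and 0 higher for ethanol minus untreated, where DLX2 stood at 0.30. Without probe sets that can match several transcripts, which removes HOXC13 and DLX5 and leaves 6 members, 1 was lower for estradiol minus ethanol. With natural logs, an alternative chosen after seeing the data, 4 were lower for estradiol against untreated, ethanol and E2-BSA, and 4 for E2-BSA plus G15 minus E2-BSA. At 2-fold 0 were lower for estradiol minus untreated, estradiol minus E2-BSA, E2-BSA plus ICI minus E2-BSA and E2-BSA plus G15 minus G15, and 0 higher for ethanol minus untreated. Members below the range were 3 for E2-BSA and 2 for G15 without the ethanol array. They were 0 for E2-BSA with the probe set of largest range and without probe sets that can match several transcripts, which gave 3 for E2-BSA plus G15, and 0 for G15 with the median of probe sets. The cause of these changes was not tested, other than fewer members. Of these alternatives only the 2-fold threshold had a share of all genes computed, so the other counts are no result about the members. No paired analysis was possible because each condition has 1 array and the labels give no replicate numbers.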

Other observations

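Without the ethanol array, an alternative chosen after seeing the data, the nearest genes of HOXC13 were again ID3, SMAD7 and ID4, at 0.085, 0.096 and 0.098 over 7 arrays. For DLX2 they became SMAD7 (0.10), the cell-cycle inhibitor CDKN1A (0.11) and MDFI (0.13), and for DLX3 SMAD7 (0.10), CDKN1A (0.12) and ID3 (0.12). CDKN1A stood at 1.26 with ethanol, -0.71 with estradiol, -0.51 with E2-BSA plus ICI and -0.64 with E2-BSA plus G15, and between -0.06 and 0.25 on the other 4 arrays. Over all 8 arrays it was the probe set nearest to DLX2 207147_at, at 0.19, followed by the glycolysis regulator PFKFB3 at 0.20.

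For DLX3 231778_at, 2 of the 3 nearest probe sets belonged to FKBP1A, an immunophilin that binds type I receptors of the TGF-beta family, and the other to SMAD9. FKBP1A 210186_s_at stood at 0.05 untreated, 0.00 with ethanol, 0.19 with BSA, -0.18 with E2-BSA and 0.06 with G15. It stood at -0.54 with estradiol, -0.61 with E2-BSA plus ICI and -0.50 with E2-BSA plus G15. SMAD9 227719_at, a BMP transducer, stood at -0.61 with estradiol, -0.84 with E2-BSA plus ICI and -0.28 with E2-BSA plus G15, and at 0.53 with G15 alone. These probe sets were picked for their likeness out of 41091, so their likeness is no finding by itself.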
